A study of Drosophila melanogaster with 4 samples.

Results

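Of the small RNAs counted in fly heads, 118 distinct sequences were 20 to 23 nt long, began with C and had at least 200 reads summed over the 4 tables. They were chosen by their first base, their length and that read sum, out of 556 sequences of the same lengths and read sum and 5550 distinct sequences in all; 107 of the 556 began with A, 67 with G and 264 with U. The heads came from wild-type male flies (genotype 5905) raised at 25 ˚C and aged to 30 or 3 days. Total RNA was sequenced after oxidation and β-elimination or without it, which gave a library of oxidized RNA and one of RNA that was not oxidized at each age, 1 library for each of the 4 groups. The ages used here follow titles and descriptions, since the age characteristic of the 3-day oxidized library reads 30 days and that of the 30-day library without oxidation reads 3 days. With 1 library per group no difference has a replicate check, no test was possible, and every comparison below is between these libraries.

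A miRNA is cut from a hairpin as a duplex whose strands, the 5p and 3p arms, can each be kept as a guide inside an Argonaute protein while the other, the passenger or star strand, is discarded. In Drosophila, AGO1 holds most miRNA guides and AGO2 holds siRNAs and part of the miRNAs, many of them star strands. The methyltransferase Hen1 adds a 2′-O-methyl group to the last base of RNAs held by AGO2. Periodate oxidation followed by β-elimination damages RNAs with a free 3′ end and spares methylated ones, so that methylated RNAs take a larger part of an oxidized library. The first base of the guide sits in a pocket of the Argonaute protein, and in flies a 5′ U is typical of AGO1-bound RNAs and a 5′ C of AGO2-bound ones. Bases 2 to 8, the seed, choose the targets, so reads of one arm that start a base apart carry different seeds. A library shows read shares only and not which Argonaute held a read.

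Overlapping reads were grouped by arm, and the 118 sequences came from 45 arms, of which 9 had 1 such sequence, 17 had 2 and 19 had 3 or more, up to 7. In 33 arms C was the most frequent first base without oxidation, and in 12 arms the C reads were a minor form of an arm that mostly began elsewhere. The 45 arms had 51 C starts with 51 distinct seeds, none of them shared. The tables carry no names: 42 arms, 22 of them 5p and 20 of them 3p, were named from catalogue sequences recalled from memory, and their places in the genome rest on those names. The sequences that carry the results below are shown as the tables give them, 5′ to 3′, with T for U and with the seed in capitals. The first set holds abundant C sequences at both ends of the oxidation scale.
miR-210-3p, 21 nt: cTTGTGCGtgtgacagcggct
miR-11-3p, 22 nt: cATCACAGtctgagttcttgct
miR-252-5p, 22 nt: cTAAGTACtagtgccgcaggag
bantam-5p, 23 nt: cCGGTTTTcgatttggtttgact
miR-315-3p, 22 nt: cTTTCGAGcaataattgaaacc
miR-2a-2-5p, 21 nt: cCTCATCAagtggttgtgata

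A second set shows a C form of an arm and, under it, the form of the same arm that starts a base or a pair of bases away.
miR-285-5p, C form: cTGAGATCgattggtgcatag
miR-285-5p, A form 1 base upstream: aCTGAGATcgattggtgcatag
miR-285-5p, A form 2 bases upstream: aACTGAGAtcgattggtgcat
miR-929-5p, C form: cAAATTGActctagtagggagt
miR-929-5p, A form 1 base downstream: aAATTGACtctagtagggagt
miR-252-5p, U form 1 base downstream: tAAGTACTagtgccgcaggag
miR-993-5p, C form: cTACCCTGtagttccgggctttt
miR-993-5p, U form 1 base downstream: tACCCTGTagttccgggctttt
miR-10-5p, C form: cCCTGTAGatccgaatttgtt
miR-10-5p, A form 1 base upstream: aCCCTGTAgatccgaatttgtt
miR-996-5p, C form: cGAACATGgatctagtgcacg
miR-996-5p, G form 1 base upstream: gCGAACATggatctagtgcacg
miR-996-5p, G form 2 bases upstream: gGCGAACAtggatctagtgcacg
miR-210-3p, U form 1 base downstream: tTGTGCGTgtgacagcggct
miR-125-5p, C form: cCTGAGACcctaacttgtga
miR-125-5p, U form 2 bases upstream: tCCCTGAGaccctaacttgtg
miR-981-5p, U form 1 base upstream: tCGGGTTTcgttagcagcgggc

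A further set shows C sequences of one arm that differ by a base at one end.
miR-981-5p, 21 nt: cGGGTTTCgttagcagcgggc
miR-981-5p, 22 nt: cGGGTTTCgttagcagcgggct
miR-275-5p, 22 nt: cGCGCTAAtcagtgaccggggc
miR-275-5p, 23 nt: cGCGCTAAtcagtgaccggggct
miR-263b-5p, 22 nt: cTTGGCACtgggagaattcaca
miR-263b-5p, 23 nt: cTTGGCACtgggagaattcacag
bantam-5p, second C start, 22 nt: cGGTTTTCgatttggtttgact
miR-305-3p, upstream C start, 22 nt: cCGGCACAtgttgaagtacact
miR-305-3p, main C start, 21 nt: cGGCACATgttgaagtacact

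By name, these hairpins lie in the BDGP6 annotation as follows; the files rest on another build, and these coordinates are not theirs. mir-210 is at X:18128219-18128318 and mir-285 at 3L:11946093-11946191, neither within a protein-coding or other noncoding gene of that annotation. mir-11 lies at 3R:21622497-21622571 in an intron of the cell cycle gene E2f1, mir-2a-2 at 2L:19569490-19569561 in an intron of spi, mir-929 at 3R:4295369-4295456 in an intron of cpx and mir-263b at 3L:15843406-15843495 in an intron of meru. The hairpin of bantam is at 3L:642208-642288, mir-10 at 3R:6809506-6809582, mir-993 at 3R:6776333-6776451, mir-996 at 3R:29217184-29217280, mir-275 at 2L:7425795-7425892 and mir-125 at 2L:18472315-18472424, each overlapping an exon of a noncoding transcript. mir-315 lies at 3L:18860971-18861054 over exons of noncoding genes on both strands. mir-252 lies at 3R:13464219-13464311 in introns of noncoding antisense genes, mir-305 at 2L:7425972-7426044 outside other genes, and mir-981 at X:1788861-1788957 opposite an intron of prage.

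Levels are given as reads per 1000000 reads of the library's own total (RPM). The totals were 12105527 reads with and 17345816 reads without oxidation at 30 days, and 2091252 with and 16112748 without at 3 days. All 118 sequences were read in 3 libraries and 116 in the 3-day oxidized one, where a count of 0 allows up to 1.43 RPM (3 counts), against 0.173 to 0.248 RPM in the others. The 118 sequences held 99.5% to 99.9% of all 20 to 23 nt reads that began with C in each library. The nearest sequences inside the read threshold had 206, 210 and 217 reads and the nearest outside it 199, 194 and 183.

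miR-210-3p, known in flies for its expression in photoreceptors, gave the most abundant C sequence. Its 21 nt read had 4316 RPM with and 51792 RPM without oxidation at 30 days, and 9136 RPM with and 39584 RPM without at 3 days. The 22 nt read of miR-11-3p, a K box miRNA known to repress pro-apoptotic genes, had 11806 RPM with and 14365 RPM without oxidation at 30 days, and 20054 RPM with and 18640 RPM without at 3 days. These leading reads were thus far apart: that of miR-210-3p was low in both oxidized libraries, while the 4 values of the 22 nt read of miR-11-3p stayed within 2-fold of each other. The 21 nt read of miR-11-3p was lower with oxidation, at 2596 against 12836 RPM at 30 days and 3994 against 10110 RPM at 3 days. The 22 nt read of miR-252-5p had 10288 RPM with and 1361 RPM without oxidation at 30 days, and 10242 RPM with and 1452 RPM without at 3 days. Of the 12 most abundant, it was the guide that was high in both oxidized libraries.

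Passenger strands followed. bantam-5p, the strand opposite the growth-promoting bantam-3p, had 7024 RPM with and 1020 RPM without oxidation at 30 days, and 14103 RPM with and 921 RPM without at 3 days. miR-278-5p, opposite a miRNA known for its role in energy balance, had 7952 RPM with and 446 RPM without oxidation at 30 days, and 9547 RPM with and 506 RPM without at 3 days. miR-315-3p, opposite a miRNA that can activate Wingless signalling, had 2841 RPM with and 64.4 RPM without oxidation at 30 days, and 9799 RPM with and 86.5 RPM without at 3 days. All 3 were high in both oxidized libraries and low in both others. The passenger of the K box miRNA miR-2a-2 had 798 RPM with and 46.0 RPM without oxidation at 30 days, and 3420 RPM with and 47.6 RPM without at 3 days. miR-8-5p, opposite the abundant miR-8-3p of the miR-200 family, had 830 RPM with and 1346 RPM without oxidation at 30 days, and 3743 RPM with and 1248 RPM without at 3 days.

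**Figure D1:**
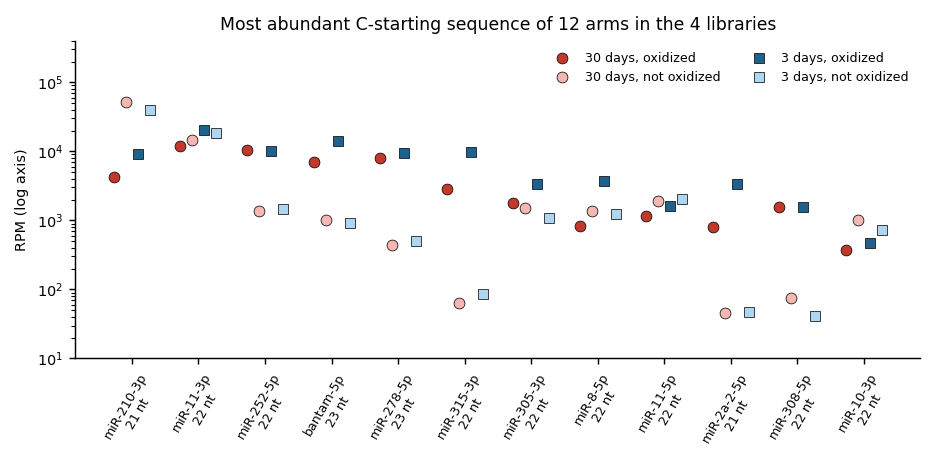
RPM on a log axis of the most abundant C-starting sequence of the 12 most abundant arms, 1 point per library (circles 30 days, squares 3 days; dark oxidized, light not oxidized). miR-210-3p is lower in both oxidized libraries (4316 against 51792 RPM at 30 days), while miR-252-5p, bantam-5p, miR-278-5p, miR-315-3p, miR-2a-2-5p and miR-308-5p are higher in them at both ages.

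Reads that began with C made up 16.3% of the 20 to 23 nt reads with oxidation and 10.9% without it at 30 days, and 19.5% with and 9.48% without at 3 days. The exact Clopper-Pearson 95% intervals, which cover counting error only, were narrow, the widest running from 19.4% to 19.6%. Reads that began with A made up 23.7% with and 2.68% without oxidation at 30 days, and 14.8% with and 2.39% without at 3 days. Those that began with G made up 13.6% with and 2.65% without at 30 days, and 10.3% with and 1.95% without at 3 days. As a ratio of the shares, C gained less than A or G at both ages, and only the U fraction was smaller with oxidation, at 46.4% against 83.7% at 30 days and 55.4% against 86.2% at 3 days. The leading pair of arms took 54.7% of all reads of the library, of any length, with and 17.8% without oxidation at 30 days, and 37.0% with and 14.9% without at 3 days.

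Counted sequence by sequence, the oxidation ratio (RPM with over RPM without oxidation) was at least 2-fold above 1 for 57 of the 118 C sequences at 30 days, at least 2-fold below 1 for 34, and between these limits for 27. At 3 days 62 were higher, 29 lower and 27 between. Over all 556 sequences 25.2% lay above and 56.5% below these limits at 30 days, with 26.6% and 51.3% at 3 days. The median log2 ratio of the C sequences was 0.82 at 30 days and 1.56 at 3 days, against -1.58 and -1.05 over all 556. It was -1.43 and -0.78 for A sequences, 0.50 and 0.40 for G sequences, and -2.33 and -1.64 for U sequences at 30 and 3 days. The G sequences divided much as the C sequences did, with 31 of 67 higher and 23 lower at 30 days. At 30 days 24 of 107 A sequences and 28 of 264 U sequences were higher.

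The read sum over 4 tables admits sequences that are scarce without oxidation, so the counts also depend on the filter. With at least 200 reads in the libraries without oxidation alone, 88 C sequences were left, and the count at 30 days was 28 higher and 34 lower, and at 3 days 34 higher and 29 lower. Their median log2 ratio was -0.48 at 30 days and -0.06 at 3 days. Of all 470 sequences that passed this filter, 14.5% lay at least 2-fold above 1 and 65.3% below it at 30 days, with 16.6% and 59.4% at 3 days. The medians of A, G and U sequences were then -1.76, -1.18 and -2.51 at 30 days. Scaling also moved the split, which at 30 days became 65 higher with 23 lower, and at 3 days 71 with 20, with the leading pair of arms out of the totals. With the trimmed mean of M values (TMM) it was 57 and 34 at 30 days and 53 and 46 at 3 days, and with median-of-ratios scaling 60 and 32, and 54 and 43.

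**Figure D2:**
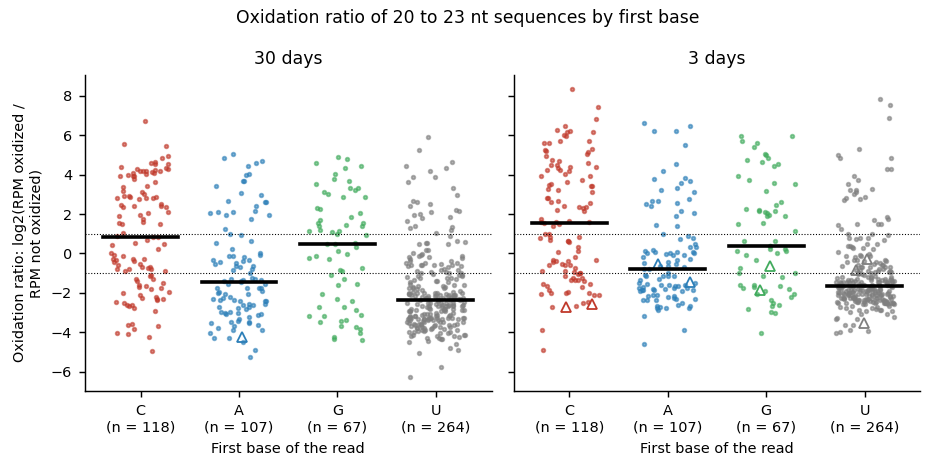
Log2 oxidation ratio (RPM with over RPM without oxidation) of each 20 to 23 nt sequence by its first base, at 30 days (left) and 3 days (right); black bars are medians, dotted lines mark 2-fold, and open triangles are bounds set by a count of 0. C sequences have the highest median at both ages (0.82 and 1.56) and spread from about 5 log2 units below 0 to over 6 above it.

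The C sequences spread widely, from a log2 ratio of -4.96 to 6.71 at 30 days and from -4.90 to 8.34 at 3 days. Over the ages, 56 were at least 2-fold higher at both, 26 at least 2-fold lower at both, and 0 were 2-fold higher at one age and 2-fold lower at the other. Of all 556 sequences, 23.7% were higher at both ages and 48.4% lower at both. With 1 sequence for each of the 45 arms, 25 lay above and 12 below these limits at 30 days. At 3 days 28 lay above and 7 below. Of all sequences, 25.2% lay above and 56.5% below at 30 days, and 26.6% and 51.3% at 3 days. The sequence of each arm was the one with the most RPM summed over the 4 libraries. The oxidized libraries thus took part in that choice, which can favour high ratios, so these counts also depend on it.

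**Figure D3:**
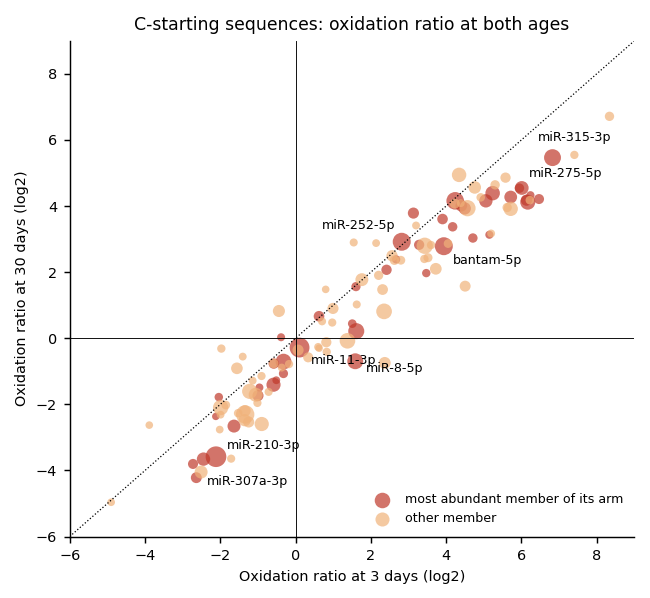
Log2 oxidation ratio of the 116 C-starting sequences read in all 4 libraries, at 3 days (x axis) and 30 days (y axis); dark points are the most abundant sequence of an arm, larger points have a higher mean RPM, and the dotted line marks equal values. The median change from 3 to 30 days is -0.74, which puts the middle of the points below the line, and miR-315-3p, miR-252-5p and miR-210-3p keep their side of 0 at both ages while miR-8-5p does not.

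miR-315-3p stood at the top among the leading sequences, with a log2 ratio of 5.46 (95% counting interval 5.38 to 5.55) at 30 days and 6.82 (6.75 to 6.90) at 3 days. The 22 nt read of miR-275-5p had 832 RPM with and 35.6 RPM without oxidation at 30 days, for a log2 ratio of 4.55. At 3 days it had 1190 RPM with and 18.5 RPM without oxidation, for a log2 ratio of 6.01. Its 23 nt read was more abundant without oxidation, at 135 RPM at 30 days and 69.9 RPM at 3 days. The log2 ratios of that 23 nt read were -0.75 at 30 days and 2.37 at 3 days. miR-33-3p, from the hairpin in an intron of the lipid regulator SREBP, had log2 ratios of 4.27 at 30 days and 5.71 at 3 days. miR-308-5p, miR-100-3p, miR-184-5p, miR-285-5p and miR-92a-3p lay between 4.16 and 4.39 at 30 days and between 5.05 and 6.47 at 3 days. These are passenger strands in common use of the word, apart from miR-92a-3p, a guide of 0.692 RPM without oxidation at 30 days. The C read of the guide miR-929-5p, a minor start of its arm, was as high, with log2 ratios of 4.54 and 5.95. It had 29.5 RPM with and 1.27 RPM without oxidation at 30 days, and 91.8 RPM with and 1.49 RPM without at 3 days. The read minimum also counts oxidized reads, so sequences scarce without oxidation can enter through them, which favours high ratios. The leading C reads of miR-929-5p, miR-92a-3p, miR-285-5p and miR-184-5p entered that way. Without oxidation that of miR-929-5p had 22 reads at 30 days and 24 at 3 days. Those of miR-315-3p, miR-275-5p, miR-33-3p, miR-308-5p and miR-100-3p reached the minimum without oxidized reads. The highest single values belonged to a minor start of miR-988-3p, at 6.71 and 8.34, which rested on 5 and 4 reads without oxidation at 30 and 3 days (intervals 5.48 to 8.34 and 6.95 to 10.23).

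At the low end, miR-307a-3p had 7.77 RPM with and 145 RPM without oxidation at 30 days, and 25.8 RPM with and 161 RPM without at 3 days, for log2 ratios of -4.22 and -2.64. Its 23 nt read had 0 reads in the 3-day oxidized library and was at least 5.84-fold lower there. miR-281-3p (-3.80 at 30 days, -2.73 at 3 days), miR-927-3p (-3.66 and -2.45) and miR-210-3p (-3.59 and -2.12) came next at 30 days. Passenger strands were found at this end too. miR-34-3p, opposite a miRNA with a known role in ageing fly brains, had log2 ratios of -2.66 at 30 days and -1.64 at 3 days. miR-277-5p, opposite a regulator of branched-chain amino acid breakdown, had 31.2 RPM with and 104 RPM without oxidation at 30 days, and 83.7 RPM with and 167 RPM without at 3 days.

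Strand class gave close medians at 30 days. Among 40 sequences of guide arms, 20 had a higher and 14 a lower share of the oxidized library, and the median log2 ratio was 1.15. Among 67 of passenger arms the numbers were 34 and 16, and the median was 1.02. At 3 days the medians were 1.24 for guide and 2.31 for passenger arms. The 27 sequences that were a minor start of their arm had medians of 2.36 at 30 days and 2.14 at 3 days, while the 91 from arms led by C had 0.51 and 1.38. The order of minor starts and arms led by C depends on the filter. The read sum admits minor starts that are scarce without oxidation. The order of guide and passenger arms turned with the filter at 30 days but not at 3 days. With at least 200 reads in the libraries without oxidation, 14 minor-start sequences had medians of -1.17 at 30 days and -0.42 at 3 days, below the -0.34 and 0.09 of 74 from arms led by C. Under that filter 28 guide sequences had -1.08 and -0.48, and 51 passenger sequences -0.41 and 0.60. The guide and passenger labels come from general knowledge and were set with earlier results known.

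Without oxidation, 27 of the 118 C sequences were at least 2-fold higher at 30 than at 3 days and 4 were lower, against 16.4% higher and 6.65% lower among all 556. The median log2 change was 0.34 for C sequences and 0.08 for all. TMM scaling turned this split to 10 higher and 18 lower, and median-of-ratios scaling to 5 and 22, so the direction of this age change depends on scaling. The medians were then -0.13 for C sequences and -0.39 for all with TMM, and -0.27 and -0.53 with median-of-ratios scaling. The largest changes among leading sequences were of scarce ones, such as miR-184-5p at 3.63 RPM at 30 days and 1.30 RPM at 3 days, and miR-33-3p at 27.7 and 10.7 RPM. The leading sequences of miR-275-5p (log2 change 0.95) and miR-981-5p (1.15) were higher by similar steps. They had 35.6 and 31.6 RPM at 30 days, against 18.5 and 14.3 RPM at 3 days. For miR-981-5p this step was that of its 21 nt read and not of the arm. Its 22 nt read had 293 RPM at 30 days and 327 RPM at 3 days. All reads of that C start together had 325 RPM at 30 days and 342 RPM at 3 days. miR-34-3p, at 413 RPM at 30 days and 607 RPM at 3 days, and miR-927-3p, at 556 and 860 RPM, were among the lowest, with log2 changes of -0.56 and -0.63.

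With oxidation, 12 of 116 C sequences were at least 2-fold higher at 30 than at 3 days and 30 were lower, against 9.76% and 34.7% of 553 sequences. This direction too turned with TMM scaling, to 28 higher and 10 lower, with medians of 0.24 for C sequences and 0.06 for all. The lowest leading sequences were miR-8-5p (log2 change -2.17), miR-2a-2-5p (-2.10), miR-927-3p (-1.84) and miR-315-3p (-1.79). miR-252-5p and miR-308-5p were level, at 0.01 each.

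The oxidation ratio itself was at least 2-fold lower at 30 than at 3 days for 40 of 116 C sequences and higher for 4, against 39.4% and 3.85% of 546 sequences. The median change was -0.74 for C sequences and -0.77 for all. Taken relative to that overall median, 12 C sequences were higher and 13 lower, against 11.9% and 10.8% of all, which is near the background. TMM scaling gave 23 higher and 4 lower, and median-of-ratios scaling 16 and 6. The medians under these scalings were 0.41 and 0.29 for C sequences and 0.38 and 0.26 for all, so both moved together. The leading sequences of single arms did differ in size. That of miR-8-5p changed by -2.28, miR-184-5p by -2.26 and miR-2a-2-5p by -2.05, while that of miR-263b-5p, a guide known to protect sensory bristle cells from death, changed by 0.66, miR-929-3p by 0.26 and miR-252-5p by 0.10. Other lengths of the same start can differ. miR-252-5p changed by 0.60 at 20 nt and -0.63 at 21 nt. The 22 nt read of miR-263b-5p had log2 ratios of -0.89 at 30 days and -0.37 at 3 days. For the 20 nt read of miR-929-3p they were -0.78 and -0.18, also lower at 30 days. Without the leading pair of arms in any total, the median change of all sequences was -0.34.

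The closest comparison for the first base is between reads of the same arm that start 1 or 2 bases apart, since both are counted in the same libraries and scaling cancels. Each form is the sum of all 20 to 23 nt reads of that start. There were 33 pairs of a C form and a form with another first base, from 23 arms, and some arms gave more than 1 pair. The C form had the higher oxidation ratio in 18 of 33 pairs at 30 days and 21 at 3 days, in 16 at both ages and in 10 at neither. The median of the C form minus its partner was 0.33 at 30 days and 0.93 at 3 days on the log2 scale. The intervals cleared 0 at both ages in 15 pairs with the C form higher and 7 with it lower.

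Partners that began with A were lower than the C form in 7 of 11 pairs at 30 days and 9 at 3 days, and those with G in 4 of 7 at both ages. Partners that began with U were lower in 7 of 15 pairs at 30 days and 8 at 3 days, which is close to an even split. Where C was the minor form of the pair it was higher in 11 of 18 pairs at 30 days and 13 at 3 days (medians 1.33 and 1.69), and where it was the major form in 7 and 8 of 15. In pairs of 2 forms neither of which began with C, the minor form was higher in 60% of 45 pairs at 30 days and 46.5% of 43 at 3 days. That share was close to the one of minor C forms at 30 days and below it at 3 days. A C form entered only with a sequence of at least 200 reads over the 4 libraries, oxidized ones included. Forms that are scarce without oxidation can thus enter through their oxidized reads, so the counts of minor C forms also depend on the filter.

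**Figure D4:**
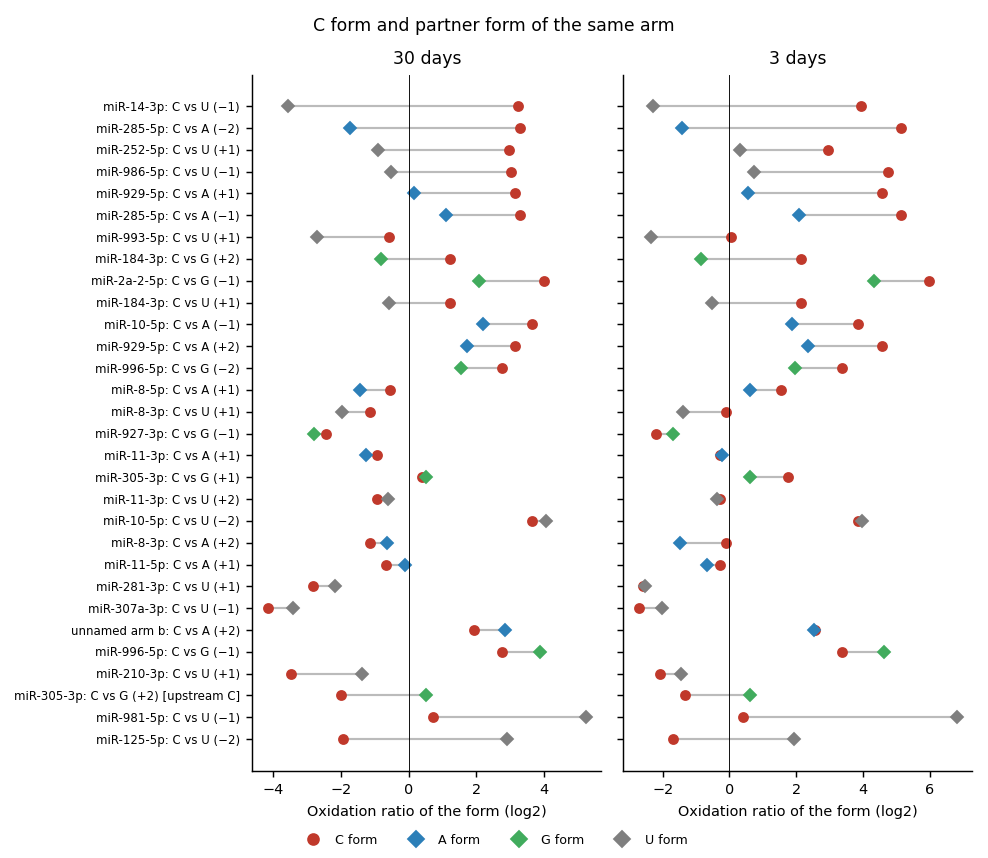
Log2 oxidation ratio of the C form (red circles) and of the form of the same arm that starts 1 or 2 bases away (diamonds, coloured by first base; the number is the partner's start relative to the C start) at 30 days (left) and 3 days (right), for the 30 pairs with at least 10 reads of each form in each library. The C form lies to the right in miR-14-3p, both miR-285-5p pairs and miR-252-5p, and to the left in miR-125-5p, miR-981-5p and miR-210-3p.

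The widest gap in favour of C at 30 days was in miR-14-3p, a miRNA known to limit cell death and fat storage. Its C form starts 1 base after the main U form and had 227 RPM with and 24.1 RPM without oxidation at 30 days, and 370 RPM with and 24.1 RPM without at 3 days. The U form had 12660 RPM with and 149090 RPM without oxidation at 30 days, and 12125 RPM with and 59238 RPM without at 3 days. The C form minus the U form was 6.79 (6.64 to 6.94) at 30 days and 6.23 (6.05 to 6.40) at 3 days, and the C form was 1.76% of both with and 0.0162% without oxidation at 30 days.

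miR-285-5p showed the order among 3 starts. The C form had 129 RPM with and 13.3 RPM without oxidation at 30 days, and 662 RPM with and 19.0 RPM without at 3 days. The A form 1 base upstream had 3349 RPM with and 1547 RPM without oxidation at 30 days, and 7778 RPM with and 1857 RPM without at 3 days. The A form 2 bases upstream had 37.6 RPM with and 125 RPM without oxidation at 30 days, and 100.4 RPM with and 268 RPM without at 3 days. The log2 ratios of these 3 sums were 3.28, 1.11 and -1.74 at 30 days and 5.12, 2.07 and -1.42 at 3 days for the C form, the near A form and the far A form. The ratios of single sequences of the C and near A forms overlapped at 30 days. Among sequences with the same 3′ end, the C form was above the near A form by 1.53 and the far one by 4.30 at 30 days, and by 2.58 and 6.79 at 3 days.

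Other pairs with the C form higher at both ages covered each partner base. In miR-929-5p the C form was above the main A form by 3.00 at 30 days and 4.02 at 3 days, and made up 9.10% of both with and 1.24% without oxidation at 30 days. In miR-10-5p, from the hairpin near the Hox genes, it was above the main A form by 1.45 and 1.97. A further C form of that arm, 1 base downstream, went the other way, with C minus A at -0.70 and -1.08. This further form had 7 reads in the 3-day oxidized library. In miR-252-5p, where C leads, the C form was above a U form by 3.89 and 2.66. In miR-993-5p the C form was the larger one with oxidation at 30 days, at 61.8% of both, and the minor one without it, at 26.9%. The C form of miR-986-5p was above its U form by 3.56 at 30 days, that of miR-184-3p by 2.65 at 3 days, and that of miR-2a-2-5p was above its G form by 1.94 and 1.66. No single C sequence of miR-929-5p or miR-986-5p reached 200 reads without oxidation. Those C forms thus entered through their oxidized reads.

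The pairs with the C form lower were as distinct. In miR-981-5p, where C leads without oxidation, the C form had 535 RPM with and 325 RPM without oxidation at 30 days, and 449 RPM with and 342 RPM without at 3 days. The U form 1 base upstream had 228 RPM with and 6.05 RPM without oxidation at 30 days, and 428 RPM with and 3.85 RPM without at 3 days. The C form minus the U form was -4.51 (-4.80 to -4.23) at 30 days and -6.40 (-6.79 to -6.02) at 3 days, and with the same 3′ end it was -1.31 and -2.35. In miR-125-5p, of the let-7 complex, the C form 2 bases after the main U form was lower by 4.83 and 3.64 on the log2 scale than that U form, and with the same 3′ end by 1.64 and 1.24. In miR-307a-3p both forms were low with oxidation and C was the lower, by 0.73 and 0.69, while with the same 3′ end C minus its partner was -0.66 at 30 days and -0.09 (-0.84 to 0.66) at 3 days.

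In miR-210-3p both forms were abundant. Its C form had 4928 RPM with and 55066 RPM without oxidation at 30 days, and 10326 RPM with and 43715 RPM without at 3 days. Its U form, 1 base shorter at the 5′ end, had 5677 RPM with and 14740 RPM without oxidation at 30 days, and 5523 RPM with and 15036 RPM without at 3 days. The C form minus the U form was -2.11 (-2.12 to -2.09) at 30 days and -0.64 (-0.67 to -0.60) at 3 days. C forms were 46.5% of both with and 78.9% without oxidation at 30 days, and 65.2% with and 74.4% without at 3 days. The U form was thus the more frequent start in the oxidized library at 30 days, and in that library alone of the 4.

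In miR-996-5p, of the family whose miR-279 shapes the CO2 neurons, a C form lay between 2 G forms. The C form had a log2 ratio of 2.76 at 30 days and 3.36 at 3 days, the G form 1 base upstream 3.88 and 4.63, and the G form 2 bases upstream 1.56 and 1.95. The first base was the same G in the highest and the lowest of the 3. In miR-10-5p the C form had log2 ratios of 3.65 and 3.85, close to a U form 2 bases upstream at 4.05 and 3.95, while the main A form between them had 2.20 and 1.88. With the same 3′ end that U form was the higher, with C minus U at -1.56 and -2.71.

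The 5 arms with more than 1 C start allow the comparison with the first base held fixed; these were looked at after their values were seen. In bantam-5p the C start 1 base downstream of the main one had a log2 ratio of -2.05 at 30 days and -1.01 at 3 days, and the main C start 3.08 and 4.04. Between reads that share their 3′ end, of 22 and 23 nt, the downstream C start was lower by 5.32 (interval -5.49 to -5.14) at 30 days and 5.18 (-5.43 to -4.93) at 3 days. In miR-305-3p the main C start, 1 base downstream of another, had 0.39 and 1.74, and the upstream C start -1.99 and -1.33. With the same 3′ end the downstream start was higher there, by 3.01 at 30 days and 3.70 at 3 days. The other arms gave smaller or less certain gaps with the same 3′ end. The downstream start minus the upstream one was -0.75 and -1.04 in miR-278-5p, -2.13 and -3.10 in miR-10-5p, and -0.06 (-2.46 to 2.34) and -0.30 (-3.62 to 3.03) between the first and second C starts of miR-988-3p, which rested on few reads without oxidation. Over all reads, the miR-988-3p C starts 1 and 2 bases downstream were above the first by 3.29 and 5.41 at 30 days. At 3 days they were above it by 4.25 and 6.66. Without oxidation these starts had 15 and 7 reads at 30 days, and 9 and 4 at 3 days.

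The 3′ end varied as well. Within a C start, 62 pairs of sequences differed by 1 base at the 3′ end, and the longer one had the lower oxidation ratio in 38 at both 30 and 3 days, 33 of them at both ages, while 19 were higher at both. The median of longer minus shorter was -0.39 at 30 days and -0.36 at 3 days. Over all 299 such pairs of any first base, the longer one was lower in 176 at 30 days and 173 at 3 days. That is a similar share, with medians of -0.35 and -0.21. Where the added base was U, the longer one was lower in 17 of 24 pairs at 30 days and 18 at 3 days (medians -0.95 and -0.57). Among sequences with other first bases, the form longer by a U was lower in 52 of 73 pairs at 30 days and 47 at 3 days (medians -0.56 and -0.44). Most of these began with U, where it was lower in 39 of 49 pairs at 30 days and 34 at 3 days. Among those that began with A it was lower in 7 of 17 pairs at 30 days and 8 at 3 days. Whether an end base is encoded in the hairpin or added later cannot be told apart here, since no genome sequence was used.

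**Figure D5:**
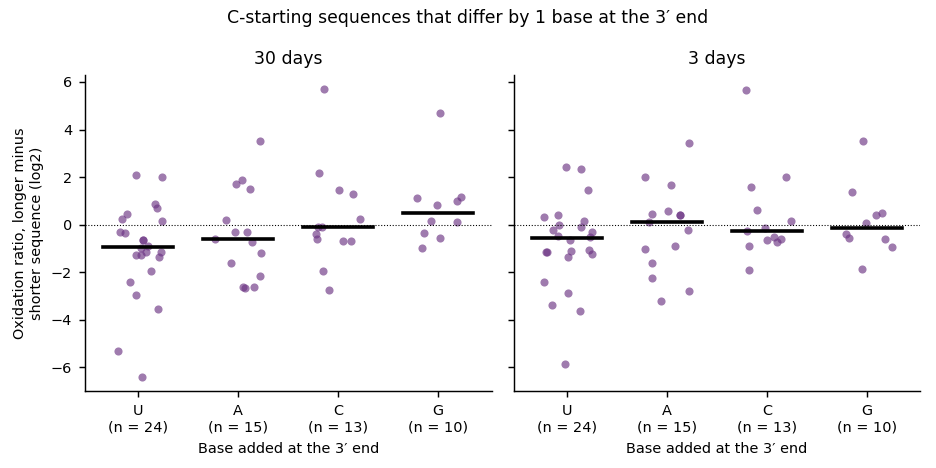
Log2 oxidation ratio of the longer minus the shorter of 2 C-starting sequences that differ by 1 base at the 3′ end, by that base, at 30 days (left) and 3 days (right); each point is a pair and black bars are medians. The median is lowest for an added U (-0.95 and -0.57), and single steps reach beyond 5 log2 units in either direction.

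Some single steps were large; those named here were also chosen after their values were seen. The 22 nt read of miR-981-5p, which ends in U, had 52.5 RPM with and 293 RPM without oxidation at 30 days, and 128 RPM with and 327 RPM without at 3 days. Its 21 nt read, which ends in C, had 481 RPM with and 31.6 RPM without at 30 days, and 321 RPM with and 14.3 RPM without at 3 days. The U thus went with a log2 step of -6.41 at 30 days and -5.85 at 3 days. In miR-275-5p the step from 22 nt to 23 nt with U was -5.29 and -3.64. Steps up existed too. The 23 nt read of miR-263b-5p, which adds G, had 217 RPM with and 15.7 RPM without oxidation at 30 days, and 152 RPM with and 17.4 RPM without at 3 days, a step of 4.67 and 3.50 over its 22 nt read. In miR-278-5p the 22 nt read, which adds C, was higher by 5.71 and 5.66 than the 21 nt read, and in miR-11-3p the 22 nt read, which adds U, was higher by 2.02 and 1.45.

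The ratio of the 118 sequences also differed by other features. C sequences of 22 nt were 37.3% of the list and had a median log2 ratio of 1.77 at 30 days and 2.54 at 3 days, against -0.27 and 0.62 for those of 20 nt. By last base the medians were 2.16 for G and 2.09 for C, and -0.28 for U and -0.31 for A at 30 days, in the same division as at 3 days (2.81, 2.54, 0.62 and 0.60). By second base, C sequences that went on with C had 2.64 and 2.59, and those that went on with A -0.47 and -0.35. A second C was also the highest among sequences that began with A, with a median of 1.51 at 30 days and 1.68 at 3 days, and among those that began with G, with 1.87 and 2.47. Among sequences that began with U it was the lowest of the 4, with -2.52 and -1.78. The median GC content without the first base was 47.4% for C sequences and 45% for the other 438. Sequences of one arm share most of their bases, so these groups are not made of independent members.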

How the data were processed

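The authors deposited raw counts, in 1 table without a header for each library, whose rows hold a read sequence and its count. Libraries were made with a TruSeq small RNA kit, per the labels' protocols. The submitters' processing notes name CASAVA 1.8.2, Bowtie and, as the genome build, dm3, without saying what each tool did; for adapter trimming, tool and settings were not given in the sources used here. Sequences listed more than once in a table (65 to 165 per library, always with equal counts) were counted once. The samples were grouped by age and oxidation from titles and descriptions.

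From these counts were computed RPM over each table's total, the 5 log2 ratios and their 95% intervals (Clopper-Pearson, exact, given the sum of both counts); the age change and form pairs use Poisson variances on the log scale. A count of 0 was set to 3 counts. Reads carry no molecular identifiers, so intervals cover counting error only. Called means at least 2-fold; no test and no p-value is given.

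Reads were grouped into arms by overlaps of at least 15 nt without mismatch and starts at most 6 nt from the leading read; 0 members fitted more than 1 arm. Arms were named by their first 7 bases against recalled catalogue sequences; in 35 of 42 the leading read was within 1 nt of the annotated arm length. The members, lists, strand classes and rules were chosen with earlier results of these data known. Named are the 12 most abundant arms, the 8 highest and 8 lowest of each ratio, each by its most abundant sequence, and form pairs with at least 10 reads of each form in every library; C and C starts, minor starts of miR-988-3p and single length steps were named after their values were seen. Alternatives were TMM (edgeR 4.0.16) and median-of-ratios scaling, totals without the leading arms, read minimums, 1 sequence per arm, matched ends or lengths of forms, and centring on the median, which was added after seeing the data. The calculation was tested on simulated data. Python 3.11.15, SciPy 1.17.1, NumPy 2.4.6, matplotlib 3.10.9 and R 4.3.3 were used.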

Additional observations from a re-analysis of the deposited data

Results flagged for a closer look

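The leading sequence of miR-11-3p had a log2 oxidation ratio of -0.28 at 30 days and 0.11 at 3 days, opposite in sign, and that of miR-8-5p -0.70 and 1.58. The C form of miR-927-3p minus its G form was 0.33 at 30 days and -0.49 at 3 days; between reads with the same 3′ end it was 2.19 and 0.06. The C form of miR-8-3p minus its A form was -0.51 at 30 days and 1.39 at 3 days, and with the same 3′ end -3.23 and -0.51, so that its sign at 3 days depends on the ends compared. Each was picked out because 1 age lay above 0 and the other below it. With 1 library per group none of these differences between ages was tested.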

How the results depend on the processing

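No paired analysis was possible because each group has 1 library. All values here are counts of C sequences, higher then lower. At 30 days with against without oxidation they were 57 and 34, with at least 1000 reads 29 and 18, with 200 reads required without oxidation 28 and 34, with 1 sequence per arm 25 and 12, and relative to the median of all sequences 75 and 13. At 3 days they were 62 and 29, and in the same order 34 and 15, 34 and 29, 28 and 7, and 74 and 10; with TMM scaling 53 and 46. For 30 over 3 days without oxidation they were 27 and 4, with TMM 10 and 18, with median-of-ratios scaling 5 and 22, with at least 1000 reads 11 and 1, with the filter without oxidation 14 and 3, and with 1 sequence per arm 7 and 0. For 30 over 3 days with oxidation they were 12 and 30, with TMM 28 and 10, with median-of-ratios scaling 18 and 16, without the leading arms in the totals 21 and 15, with at least 1000 reads 4 and 19, with the filter without oxidation 7 and 24, with 1 sequence per arm 0 and 13, and relative to the median 28 and 11. For the age change of the oxidation ratio they were 4 and 40, and in the same order 23 and 4, 16 and 6, 10 and 26, 1 and 24, 3 and 25, 0 and 20, and 12 and 13. Fewer sequences enter under stricter minimums and with 1 per arm. Scaling shifts C and other sequences alike, so the background moves with the rescaled counts. The cause of the other shifts was not tested. The median age change of the ratio over all sequences was -0.77 with total reads, 0.38 with TMM and 0.26 with median-of-ratios scaling. Under TMM the age change of miR-34-3p (-1.02) was 0.13, that of miR-281-3p (-1.08) 0.069 and that of miR-184-3p (-1.06) 0.083; with median-of-ratios scaling that of miR-34-3p was 0.0047. The C form was higher in 18 of 33 pairs at 30 days and 21 at 3 days, with the same 3′ end in 18 and 20, with the same length in 18 and 19, and with at least 1000 reads of each form in 12 and 10. Fewer pairs entered the matched and the 1000-read settings, so their counts do not share the total of 33. The shallow 3-day oxidized library limits sequences near 1.43 RPM.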
